A study of Arabidopsis thaliana with 6 samples.

Results

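The major latex protein-like (MLP) family of Arabidopsis thaliana was described in poly-A selected RNA of whole seedlings of prp8a-14 and of wild type. Its members were taken by gene ID: MLP328 (AT2G01520), MLP329 (AT2G01530), MLP28 (AT1G70830), MLP31 (AT1G70840), MLP34 (AT1G70850), MLP43 (AT1G70890) and MLP423 (AT1G24020). Of these 7 genes 6 were among the 19807 genes analysed, and MLP31 was not analysed here. The family was selected on the log2 change between mutant and wild type, MLP328 being among the largest falls of the series. Values of the members in this contrast are therefore given as a description, without a test, and the tests concern relatives outside the 7.

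The prp8a-14 seedlings carried a mutant allele of PRP8A, the gene of the protein at the catalytic centre of the spliceosome, in the Col-0 background. The reference was wild type Col-0. Seedlings of both genotypes were 8 days old, had been grown in continuous light on plant nutrient medium, and were extracted whole, so that root and shoot RNA were mixed. There were 3 biological replicates of prp8a-14 (numbers 4 to 6) and 3 of wild type (numbers 1 to 3).

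MLP proteins are small plant proteins of the Bet v 1 superfamily, named after the major birch pollen allergen. Their fold encloses a hydrophobic cavity that can hold lipids, hormones and other poorly soluble compounds, and the family takes its name from proteins of opium poppy latex. The PYR/PYL abscisic acid receptors are relatives with the same fold. Most Arabidopsis MLP genes lie in tandem arrays. RefSeq annotates MLP328, also called ZCE1, as responding to cis-cinnamic acid, promoting vegetative growth and delaying flowering. MLP43 has been linked to abscisic acid signalling and drought tolerance, and MLP28 and MLP423 have been linked to leaf development downstream of miR394 and its F-box target LCR.

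Several family members are close copies of one another, and this bears on how reads can be assigned. The start of the coding sequence of MLP328 is shown with those of its tandem neighbour MLP329 and of AT4G14060, its closest relative, on another chromosome. The sequences are bases 1 to 120 of the coding sequence, 5′ to 3′ on the coding strand (plus strand in all 3 genes), from the RefSeq annotation of assembly TAIR10.1. Capitals mark the 12 of 120 positions at which the 3 genes are not all alike.
MLP328: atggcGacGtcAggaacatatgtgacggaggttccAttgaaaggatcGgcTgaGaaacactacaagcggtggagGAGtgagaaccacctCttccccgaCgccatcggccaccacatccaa
MLP329: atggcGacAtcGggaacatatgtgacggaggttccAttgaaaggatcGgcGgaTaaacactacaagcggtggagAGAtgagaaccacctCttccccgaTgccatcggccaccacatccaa
AT4G14060: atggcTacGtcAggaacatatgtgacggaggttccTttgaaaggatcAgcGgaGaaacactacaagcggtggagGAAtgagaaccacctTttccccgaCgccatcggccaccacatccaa

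The other close pair among the members is MLP28 and MLP34, from the array on chromosome 1. The last 120 bases of their coding sequences are shown, bases 889 to 1008 in MLP28 and bases 832 to 951 in MLP34, from the same source and on the coding strand (minus strand in both). Capitals mark the 16 positions that differ.
MLP28: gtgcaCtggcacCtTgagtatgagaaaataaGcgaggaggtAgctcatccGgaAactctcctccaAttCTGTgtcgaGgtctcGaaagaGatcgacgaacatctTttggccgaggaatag
MLP34: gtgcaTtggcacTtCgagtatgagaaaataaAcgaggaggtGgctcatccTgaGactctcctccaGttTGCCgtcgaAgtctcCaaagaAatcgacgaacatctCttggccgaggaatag

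Over the aligned coding sequence, MLP328 was 91.2% identical to AT4G14060 and 89.7% identical to MLP329, and MLP28 was 89.8% identical to MLP34. The coding sequences of MLP28 and MLP34 are longer, at 1008 and 951 bases, than the 456 bases of MLP328 and MLP329. The longest run of bases that MLP328 shares exactly with another family transcript was 39 bases, with AT4G14060, and that of MLP28 was 72 bases, with MLP34. No window of 150 bases, the read length, was shared exactly between any of the family transcripts compared. Reads can still align to a near copy with mismatches, so the separate values of close copies are uncertain to that extent. In the longest annotated transcript each member has 2 exons, except MLP28 and MLP34 with 3, and the counts are per gene and do not separate spliced from unspliced transcripts.

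Counts on the analysed genes totalled 49126331 to 63069817 per library, and the 3 counts that an observed 0 still allows were worth 0.0484 to 0.0635 CPM (counts per scaled library size). The authors' scaled library sizes are the denominators of all CPM values. PRP8A itself stood at 501 CPM ± 35.5 in prp8a-14 and 412 CPM ± 22.4 in wild type (SD, n = 3 each). Its log2 change was 0.28 (SE 0.06, limma with Benjamini-Hochberg adjustment, adjusted p = 0.0031). The level of PRP8A does not check the labels because a mutant allele can be transcribed. Across all genes 6977 (35.2%) were called changed by limma with an adjusted p under 0.05, of which 3433 (17.3%) fell and 3544 (17.9%) rose. With library totals as denominators the same test gave 5854 that fell and 2110 that rose. The median log2 change over all genes was -0.09 with totals and 0.00 with the scaled sizes.

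MLP328 was the member with the largest difference. It had 15.3, 21.1 and 18.1 CPM in the prp8a-14 libraries, against 169, 178 and 151 CPM in the wild type libraries. The genotypes were far apart, with every mutant library below every wild type library. The mean was 18.1 CPM ± 2.88 in prp8a-14 and 166 CPM ± 13.7 in wild type (SD, n = 3 each), a log2 change of -3.20 (SE 0.10) and a level 9.16 times lower in the mutant. The depth behind these values was 845 to 1121 counts per prp8a-14 library and 8550 to 9329 per wild type library.

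MLP329, which lies beside MLP328 on chromosome 2, had 31.8, 38.8 and 32.9 CPM in prp8a-14, against 81.9, 87.9 and 81.7 CPM in wild type. The groups did not overlap. The log2 change was -1.29 (SE 0.07), or 2.43 times lower in the mutant.

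MLP34 had the highest level of the members in both genotypes, also per length. It had 181, 217 and 203 CPM in prp8a-14, against 507, 584 and 507 CPM in wild type, again without overlap. Its log2 change was -1.41 (SE 0.07), a level 2.66 times lower in the mutant. MLP43, of the abscisic acid and drought response, had 38.3, 33.3 and 34.2 CPM in prp8a-14, against 66.6, 68.5 and 60.8 CPM in wild type. All mutant libraries again lay below all wild type libraries, and the log2 change was -0.89 (SE 0.06).

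MLP28 and MLP423 had overlapping groups. MLP28 had 131, 104 and 94.6 CPM in prp8a-14 and 126, 134 and 114 CPM in wild type. Mutant replicate 4 stood within the wild type range and replicates 5 and 6 below it, and the log2 change was -0.19 (SE 0.10). Without mutant replicate 4 the change was -0.33, and with library totals it was -0.29. MLP423 had 43.8, 39.7 and 44.4 CPM in prp8a-14 and 47.1, 37.0 and 39.3 CPM in wild type. Its log2 change was 0.06 (SE 0.08), and -0.014 without wild type replicate 2 and -0.037 with library totals, so that it has no direction here.

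**Figure D1:**
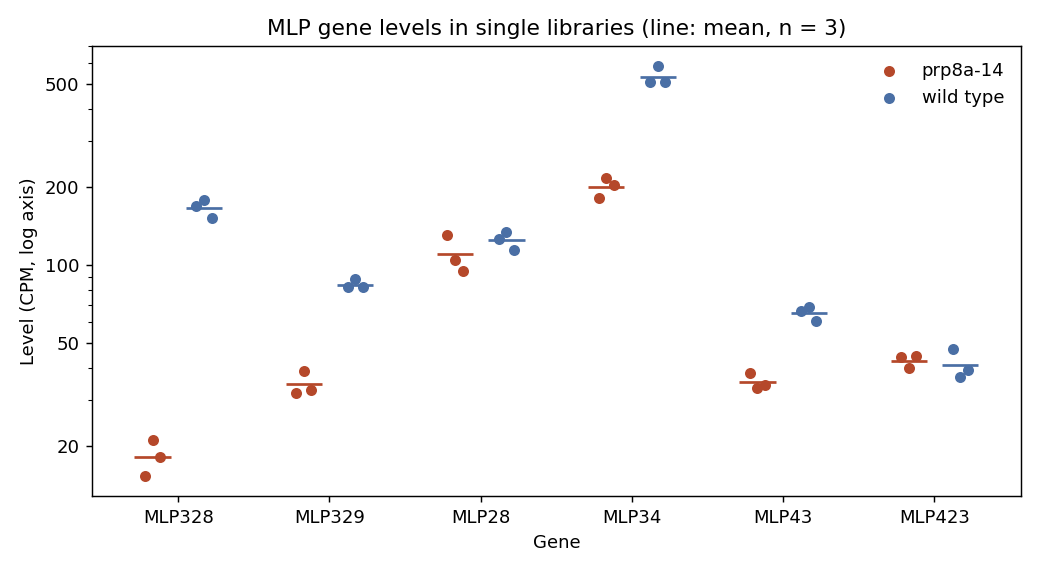
Level of each MLP member in every library, in CPM on a log axis, with prp8a-14 on the left and wild type on the right of each gene and lines at the means (n = 3 each). The groups are separate for MLP328, MLP329, MLP34 and MLP43 and overlap for MLP28 and MLP423.

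Of the 6 members analysed 4 had groups that did not overlap, all with the mutant lower, and 2 had overlapping groups. Groups did not overlap in 48.1% of all genes and, with the mutant lower, in 23.7%. Because the contrast was used in choosing the family, nothing is read from these shares. The median log2 change was -1.09 over the 6 members and 0.00 over all genes. Summed over the 6 members, the level was 427 to 454 CPM in prp8a-14 and 954 to 1090 CPM in wild type.

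The members also differed in order of level. Levels of different genes were compared as CPM per kilobase of the longest annotated transcript. In prp8a-14 the order was MLP34 (148 CPM per kb ± 13.3), MLP28 (78.8 ± 13.5), MLP423 (39.3 ± 2.33), MLP329 (36.7 ± 4.01), MLP43 (34.2 ± 2.60) and MLP328 (20.3 ± 3.22; SD, n = 3). MLP423, MLP329 and MLP43 overlapped one another in that order. In wild type it was MLP34 (392 CPM per kb ± 33.0), MLP328 (186 ± 15.3), MLP28 (89.4 ± 7.13), MLP329 (89.2 ± 3.71), MLP43 (63.3 ± 3.89) and MLP423 (37.9 ± 4.86; SD, n = 3). MLP28 and MLP329 overlapped, and the other neighbours were separate. MLP328 was thus last in the mutant and next to MLP34 in wild type.

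The balance within each pair of close copies differed between the genotypes. Per kilobase, the ratio of MLP328 to MLP329 was 0.505, 0.570 and 0.578 in prp8a-14, against 2.17, 2.13 and 1.95 in wild type. MLP328 was the less abundant copy in every mutant library and the more abundant in every wild type library. The ratio of MLP34 to MLP28 was 1.42, 2.14 and 2.20 in prp8a-14, against 4.13, 4.48 and 4.56 in wild type, so that MLP34 led in all 6 libraries by a smaller margin in the mutant. These ratios use the same contrast as the choice of members and were not tested.

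**Figure D2:**
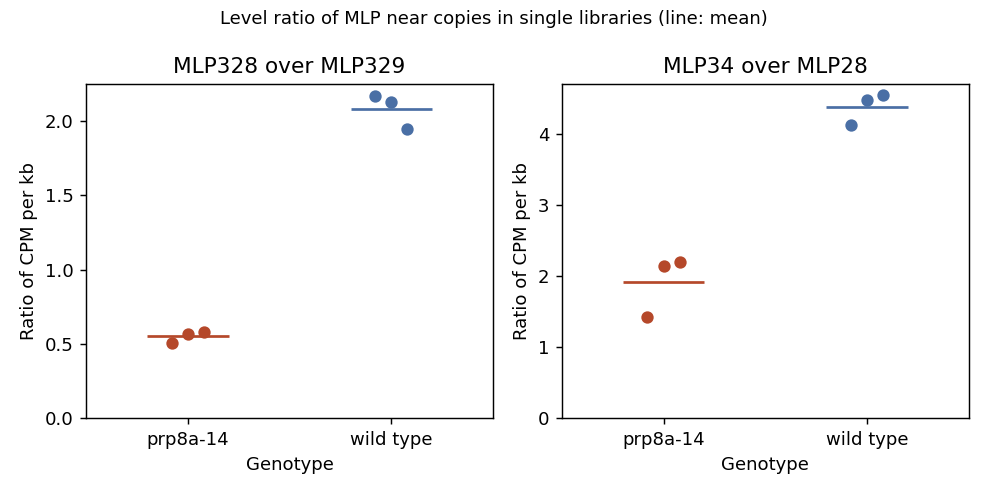
Ratio of CPM per kb of MLP328 to MLP329 (left panel) and of MLP34 to MLP28 (right panel) in each library, prp8a-14 left and wild type right, with lines at the means. The MLP328 to MLP329 ratio lies below 1 in all mutant libraries and between 1.95 and 2.17 in the wild type libraries.

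The next question was whether MLP-like genes outside the 7 members differed too. A list of 23 further genes was drawn up with earlier results of these data known. It comprised MLP165, MLP168 and unnamed genes of the polyketide cyclase/dehydrase and lipid transport superfamily. Of these, 14 were analysed. In prp8a-14 10 of the 14 fell, 0 rose and 4 did not pass (limma with Benjamini-Hochberg adjustment over all 19807 genes), beside 17.3% of all genes called lower. Of the 10, 6 were at least 2-fold lower, beside 1.49% of all genes called and at least 2-fold lower. The log2 change was below 0 for all 14, though AT5G28010 turned positive with quantile normalization (0.12) and without mutant replicate 5 or wild type replicate 2. The median was -0.82. The groups did not overlap for 11, all with the mutant lower, beside 23.7% of all genes with the mutant lower and 48.1% in either direction. Their summed level was 578 to 599 CPM in prp8a-14 and 1061 to 1203 CPM in wild type.

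AT4G14060, the closest relative of MLP328, had 0.453, 0.445 and 0.565 CPM in prp8a-14, against 5.29, 7.39 and 5.88 CPM in wild type. The counts were 25, 21 and 35 in the mutant libraries and 280, 387 and 332 in the wild type libraries. Pooled over the libraries this was 12.5 times lower in prp8a-14 (exact 95% counting interval 9.99 to 15.9), with a log2 change of -3.64 (SE 0.20, limma with BH, adjusted p = 2.98e-07). With 1 CPM added to every value the log2 change was -2.26. Reads of the more abundant MLP328, 91.2% identical over the aligned coding sequence, could align to AT4G14060 with mismatches. To that extent its test is not independent of MLP328, and the counting interval does not cover this. Read assignment was not tested.

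The pair AT3G26450 and AT3G26460, which are 92.6% identical and adjacent on chromosome 3, both fell but by unlike amounts. AT3G26460 had 3.55, 5.06 and 4.75 CPM in prp8a-14, against 22.6, 23.9 and 20.2 CPM in wild type, a log2 change of -2.33 (SE 0.13, limma with BH, adjusted p = 2.82e-07). AT3G26450 had 95.6, 87.6 and 83.4 CPM in prp8a-14, against 133, 135 and 113 CPM in wild type, a log2 change of -0.52 (SE 0.07, limma with BH, adjusted p = 0.000154). In both genes every mutant library was below every wild type library. Reads of the more abundant AT3G26450 could align to AT3G26460 with mismatches. To that extent the 2 tests are not independent.

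The adjacent pair AT4G23670 and AT4G23680 on chromosome 4 fell as well. They are 86.2% identical over the aligned coding sequence, so the same limit on read assignment holds. AT4G23670 had 162, 154 and 148 CPM in prp8a-14, against 414, 406 and 353 CPM in wild type, with a log2 change of -1.34 (SE 0.06, limma with BH, adjusted p = 9.32e-08). AT4G23680 had 9.52, 8.72 and 6.81 CPM in prp8a-14, against 35.2, 37.5 and 31.8 CPM in wild type, with a log2 change of -2.07 (SE 0.11, limma with BH, adjusted p = 2.59e-07).

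MLP165, a named MLP outside the 7 members, had 4.07, 4.51 and 4.70 CPM in prp8a-14, against 12.7, 12.3 and 10.3 CPM in wild type. Its log2 change was -1.41 (SE 0.11, limma with BH, adjusted p = 3.11e-06). MLP168 was at 2.13 CPM ± 0.331 in prp8a-14 and 3.47 CPM ± 0.499 in wild type (SD, n = 3 each), a log2 change of -0.70 (limma with BH, adjusted p = 0.0083). The falls of AT1G14960 and AT1G23130 were -1.60 and -0.62 on the log2 scale (limma with BH, adjusted p = 1.74e-06 and 2.01e-06). Per kilobase of transcript AT1G23130 was the most abundant of the 14, at 340 CPM per kb ± 7.82 in prp8a-14 and 523 CPM per kb ± 23.5 in wild type (SD, n = 3 each).

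AT1G70880 fell by 0.50 on the log2 scale (limma with BH, adjusted p = 0.035), at 1.96 CPM ± 0.123 in prp8a-14 and 2.79 CPM ± 0.387 in wild type (SD, n = 3 each). It lost its call without mutant replicate 4 (-0.49, adjusted p = 0.073) or 5 (-0.47, adjusted p = 0.088), without wild type replicate 2 (-0.48, adjusted p = 0.095) or 3 (-0.41, adjusted p = 0.14), and with quantile normalization (-0.37, adjusted p = 0.10; all limma with BH). The 4 genes that did not pass were AT1G70860 (-0.95), AT1G30990 (-0.60), AT1G23120 (-0.35) and AT5G28010 (-0.05), all below 4 CPM in every library. Of these, AT1G70860 and AT1G23120 passed with library totals (-1.04 and -0.45; limma with BH, adjusted p = 0.039 and 0.037). AT1G23120 also passed in limma without trend, AT1G70860 without mutant replicate 4 or wild type replicate 1, and AT1G30990 without mutant replicate 6.

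**Figure D3:**
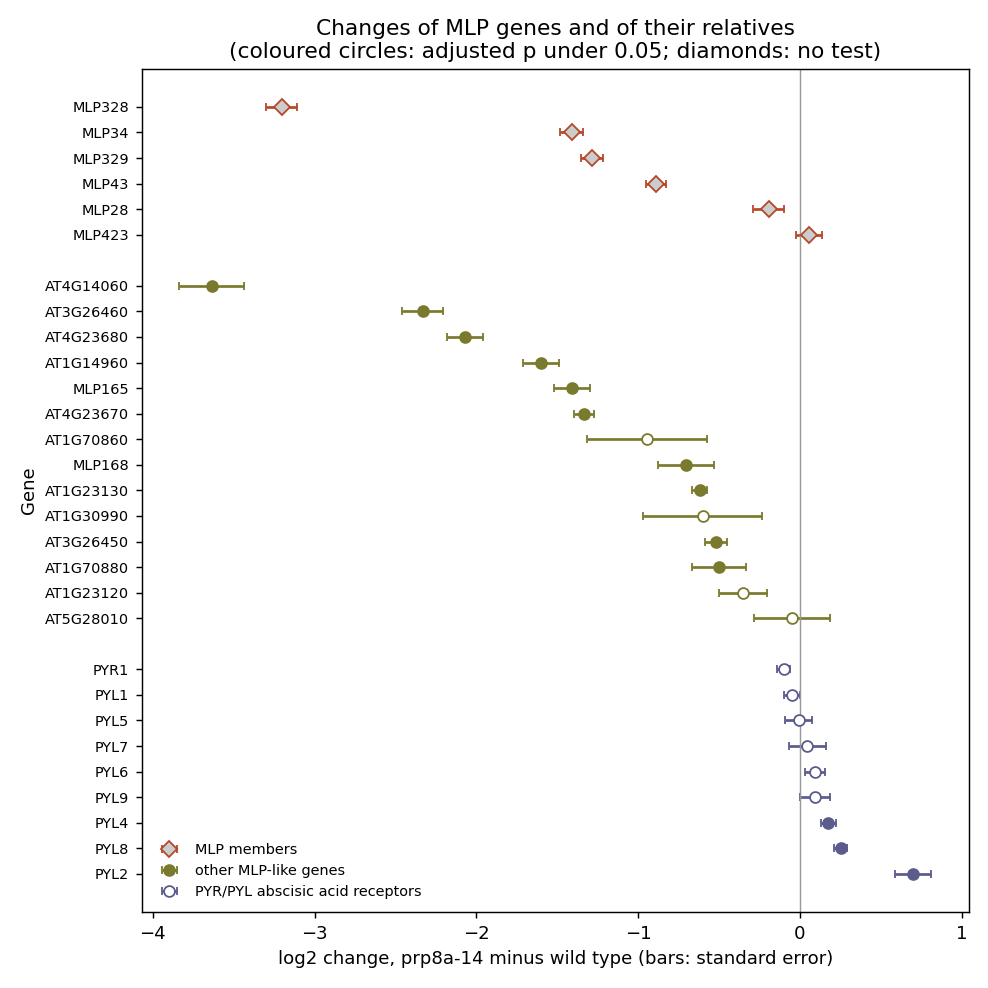
The log2 change, prp8a-14 minus wild type, of the 6 MLP members, the 14 other MLP-like genes and the 9 PYR/PYL receptors, with standard errors; coloured circles passed an adjusted p under 0.05, white circles did not, and the members (grey diamonds) are shown without a test. In the MLP-like group all points lie below 0, from -0.05 (AT5G28010, at 0.12 with quantile normalization) to -3.64, whereas the receptors run from -0.10 to 0.70.

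Over the 20 MLP and MLP-like genes analysed, the summed level was 1038, 1053 and 1005 CPM in prp8a-14, against 2182, 2293 and 2015 CPM in wild type. The groups did not overlap, and the mutant libraries lay closer together than the wild type libraries. MLP328 made up 1.76% ± 0.266 of this sum in prp8a-14 and 7.68% ± 0.147 in wild type (SD, n = 3 each). MLP34 made up 19.4% ± 1.71 in prp8a-14 and 24.6% ± 1.23 in wild type (SD, n = 3 each).

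The tandem arrays were then followed gene by gene. On chromosome 2, MLP328 and MLP329 are flanked by PCMP-H37, of the pentatricopeptide repeat family, and by CAR10, a C2-domain protein gene of the abscisic acid-related CAR family. PCMP-H37 stood at 2.76 CPM ± 0.337 in prp8a-14 and 2.75 CPM ± 0.547 in wild type (SD, n = 3 each). CAR10 fell, to 13.1 CPM ± 1.00 in prp8a-14, against 17.2 CPM ± 0.717 in wild type (SD, n = 3 each), a log2 change of -0.39 (limma with BH, adjusted p = 0.0018). The MLP genes between them changed by -3.20 and -1.29. Those 2 were chosen on this contrast, so nothing is read from the difference in size.

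On chromosome 1 the array runs from MLP28 through MLP31, MLP34, AT1G70860, AT1G70870 and AT1G70880 to MLP43. In that order the log2 changes were -0.19 for MLP28, -1.41 for MLP34, -0.95 for AT1G70860, -0.50 for AT1G70880 and -0.89 for MLP43, MLP31 and AT1G70870 not being analysed here. On one side of the array AT1G70820 rose by 0.29 (limma with BH, adjusted p = 0.0022). On the other side neither CLE17, of a small signalling peptide family (0.18), nor AT1G70900 (-0.06) passed the test (limma with BH, adjusted p = 0.41 and 0.42). With library totals AT1G70900 passed (-0.15, limma with BH, adjusted p = 0.031).

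**Figure D4:**
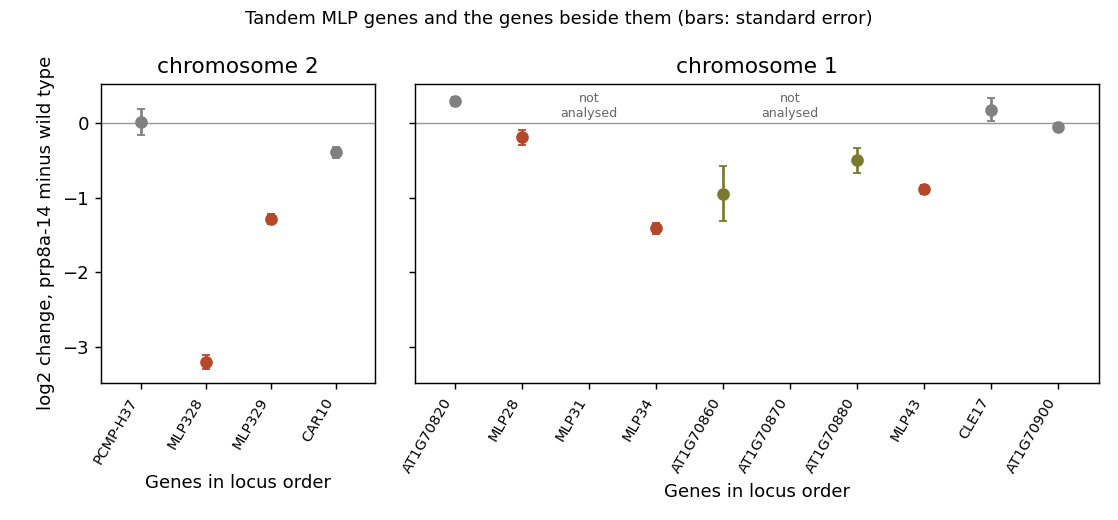
The log2 change, prp8a-14 minus wild type, with standard errors, of the tandem MLP genes on chromosomes 2 and 1 in locus order (red members, olive other MLP-like genes) and of the genes beside them (grey). The flanking genes lie between -0.39 and 0.29, and MLP328, a member chosen on this contrast, lies lowest at -3.20.

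The PYR/PYL receptors, which bind abscisic acid and then inhibit protein phosphatases of the PP2C class, share the fold of the MLP proteins. Of 14 listed 9 were analysed, of which 3 rose, 0 fell and 6 did not pass, beside 17.9% of all genes called higher. Their median log2 change was 0.09. PYL2 had 7.76, 7.26 and 8.31 CPM in prp8a-14, against 4.99, 5.16 and 4.25 CPM in wild type, a log2 change of 0.70 (SE 0.11, limma with BH, adjusted p = 0.000538). PYL8 rose by 0.25 (limma with BH, adjusted p = 0.000562) and PYL4 by 0.17 (limma with BH, adjusted p = 0.013). PYL4 was no longer called once wild type replicate 3 was left out (0.16, adjusted p = 0.055), with library totals (0.08, adjusted p = 0.14), with quantile normalization (0.10, adjusted p = 0.059) and in limma without trend (adjusted p = 0.063; all BH). With library totals 2 receptors rose and 2 fell, beside 2110 and 5854 of all 19807 genes.

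Genes tied to single MLP members by earlier work moved little. LCR, the F-box gene that miR394 targets, was at 32.2 CPM ± 0.662 in prp8a-14 and 35.7 CPM ± 0.680 in wild type (SD, n = 3 each), a fall of -0.15 on the log2 scale (limma with BH, adjusted p = 0.030). ABF1, a transcription factor of abscisic acid response, fell by 0.16 on the log2 scale (limma with BH, adjusted p = 0.037). OST1, a protein kinase of the same pathway, rose by 0.20 (limma with BH, adjusted p = 0.022). Of 5 such genes listed 3 were analysed, of which 2 fell and 1 rose, beside 17.3% and 17.9% of all genes. All 3 calls were lost without some single libraries. LCR and ABF1 lost theirs without any 1 wild type library and without mutant replicate 4 or 6, over a range of -0.13 to -0.17 in those fits, and in limma without trend. OST1 lost its call without mutant replicate 4 or 5 or wild type replicate 3 (0.15 to 0.19) and with library totals (0.10).

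The genes with profiles nearest to MLP328 were found by the root mean square difference of log2 values, each centred on its own mean over the 6 libraries, among the 9085 named genes averaging 5 CPM or more over the libraries. CYP716A2, a cytochrome P450, was nearest at 0.215, with a mean of 4.99 CPM ± 0.447 in prp8a-14 and 36.4 CPM ± 6.35 in wild type (SD, n = 3 each). PEN3, an enzyme of triterpene synthesis, came next at 0.237, with 4.93 CPM ± 0.682 in prp8a-14 and 41.9 CPM ± 5.85 in wild type (SD, n = 3 each). ROSY1 followed at 0.256, ICS2, an isochorismate synthase, at 0.290, and VSP1, a vegetative storage protein, at 0.368. With 3 libraries in each of the 2 genotypes, this likeness is mainly that of the size of the fall, and no p-value was attached to it.

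Whole seedlings mix organs, and fewer cells of a type cannot be told apart from less RNA per cell in such samples. Root markers were therefore followed beside the MLP genes, since several were lower in the same libraries. Of 16 root markers analysed of 17 listed, 11 fell and 2 rose, beside 17.3% and 17.9% of all genes, with a median log2 change of -0.51. The list was taken up with earlier results of these data known, so nothing is read from these shares. The Casparian strip gene CASP1 was at 19.5 CPM ± 0.186 in prp8a-14 and 32.7 CPM ± 3.61 in wild type (SD, n = 3 each), a log2 change of -0.74 (limma with BH, adjusted p = 1.75e-05). Another of the markers, SCR, rose by 0.25 on the log2 scale (limma with BH, adjusted p = 0.0010). SCR was at 69.7 CPM ± 2.7 in prp8a-14 and 58.5 CPM ± 0.979 in wild type (SD, n = 3 each). SHR, a regulator of root patterning, was at 34.1 CPM ± 0.866 in prp8a-14 and 34.1 CPM ± 0.598 in wild type (SD, n = 3 each). The summed level of the 16 markers was 480 to 502 CPM in prp8a-14 and 438 to 472 CPM in wild type. Such a sum follows the most abundant markers and is not a measure of root share. Mean levels ran from 1.10 CPM in prp8a-14 and 2.62 CPM in wild type for CASP5 to 135 and 152 CPM for PHO1. For IRT1 they were 163 and 74.9 CPM. Without IRT1, an iron transporter gene that rose by 1.12 on the log2 scale, the sum was 317 to 333 CPM in prp8a-14 and 369 to 393 CPM in wild type, a split made after the values were seen. No analysed marker was at 0 in any library. Among 5 phloem markers 1 rose, PP2-A1 (0.16; 0.07 and not called with library totals), and 0 fell, with a summed level of 439 to 459 CPM in prp8a-14 and 419 to 433 CPM in wild type. The largest fall of a root marker was -1.22, in CASP4 (SE 0.15) and CASP5 (SE 0.20). Of the members, chosen on this contrast, MLP43 changed by -0.89, MLP329 by -1.29 (SE 0.07), MLP34 by -1.41 (SE 0.07) and MLP328 by -3.20. The median of the other MLP-like genes was -0.82. The standard errors of CASP4 and CASP5 overlap those of MLP329 and MLP34, so these are not ranked. The part of root or phloem share in the MLP values was not tested.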

How the data were processed

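Per the labels' protocols, whole-seedling RNA was poly-A selected, copied with random hexamers and sequenced as paired reads of 150 bases. Tools listed without a role in the submitters' processing notes are limma, edgeR, Salmon 0.8.2, featureCounts 1.4.6-p5 of Subread, STAR 2.5.1a and bcl2fastq. Not given in the sources used here are the genome build, the annotation, the use of strand and the rule for listing genes, so overlapping and antisense genes are uncertain and no coordinates are printed. The deposited log2 values are log2 CPM with 0.5 added to each count, relative to library sizes scaled by the authors. This was read from the values: 100% were whole counts within 0.1. Of 20079 lines, 272 repeated a gene, leaving 19807 genes, and 3 columns of per-sample values matching no sample were not used.

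All genes were fitted with limma 3.58.1 (eBayes with trend, R 4.3.3) on the log2 values of the 6 libraries, two-sided, with Benjamini-Hochberg adjustment (BH) over all genes, and called at an adjusted p under 0.05. The fit was also run on simulated counts with the same dispersion for every gene, unlike these data, so that run checks the code only. Counting intervals are exact binomial at 95% and, like the limit for a count of 0, cover counting error only. Lengths, locus order and sequences came from RefSeq TAIR10.1 by gene ID, aligned with biopython 1.88. Members and lists were chosen with earlier results of these data known. The genes named were the 7 members, every list gene that passed (markers apart), and the 5 genes nearest MLP328; genes flanking the arrays, list genes that did not pass and single markers were chosen for description. The alternatives were library totals, voom weights, limma without trend, quantile normalization, genes averaging 5 CPM or more, pseudocounts of 0.1 and 1 CPM, and each library left out.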

Additional observations from a re-analysis of the deposited data

How the results depend on the processing

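The members were chosen on this contrast, so their values are given without calls. MLP328, MLP329, MLP34 and MLP43 were lower in the mutant in all 13 alternatives, with log2 ranges of -3.32 to -3.09, -1.38 to -1.23, -1.54 to -1.34 and -0.98 to -0.85. MLP28 stayed negative (-0.33 to -0.09). MLP423 changed sign with library totals (-0.037) and without wild type replicate 2 (-0.014), its range with a library left out being -0.014 to 0.16. Of genes that did not pass, AT5G28010 changed sign with quantile normalization (0.12) and with a library left out (-0.16 to 0.043), PCMP-H37 with library totals (-0.081) and with a library left out (-0.10 to 0.17), and SHR with a library left out (-0.024 to 0.011). PP2-A1 lost its call in 5 alternatives. The cause was not tested. Between 7 and 12 other MLP-like genes fell and 0 rose in every alternative. The 12 of 14 came with library totals, where 5854 of all 19807 genes fell. The 7 were all of the 7 with a mean of at least 5 CPM, where 2818 of all 15760 genes fell. The number of PYR/PYL receptors called was 2 to 4, the 4 of 9 being with library totals, where 7964 of all 19807 genes were called. Over all genes 5405 to 7964 were called. With a library left out, a genotype had 2 libraries. No paired analysis was possible because the genotypes share no replicate numbers. The p-values as reported rest on the spread between 3 libraries a genotype, moderated by limma with a trend fitted over all genes.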
